A study of Xenopus laevis with 4 samples.

Results

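The miRNAs described here are those known from muscle, blood and blood vessels, measured in epidermal explants of Xenopus laevis, a frog. They were chosen by number, as every listed row of miR-1, miR-126, miR-133, miR-142, miR-144, miR-150, miR-155, miR-206, miR-221, miR-222, miR-223 or miR-451, whatever its suffix. This gave 9 of the 98 listed rows: miR-1b and miR-206 (muscle), miR-126, miR-221 and miR-222 (vessel), and miR-155, miR-223, miR-451 and miR-142-5p (blood and immune cells). miR-133, miR-144 and miR-150 were not analysed here. Explants were dissected at stage 11.5, the gastrula, labelled non ciliated, or at stage 26, the tailbud, labelled ciliated, from embryos of NASCO females fertilized in vitro. Each stage is 1 pool of 50 explants sequenced as 2 technical libraries, a and b, so p-values cover the spread between libraries and not that between pools of embryos. Ciliation and developmental age differ together between the stages and cannot be told apart. For library b of either stage, the source name and the stage label differ slightly, and the stage label was used.

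A miRNA is a short RNA that guides silencing proteins to mRNAs, and it recognises its targets mainly through its seed, the bases 2 to 8 from its 5′ end. miR-1 and miR-206 are switched on with the muscle programme and favour muscle differentiation. miR-126 is an endothelial miRNA that protects vessel integrity in zebrafish and mouse. miR-142 and miR-223 mark white blood cells in mouse, miR-155 acts in activated lymphocytes and macrophages of mammals, and miR-451 in maturing red blood cells. Embryonic epidermis comes from ectoderm, whereas muscle, vessels and blood come from mesoderm. A gastrula holds none of these tissues in mature form, while a tailbud has muscle segments and blood precursors.

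The mature sequences are shown because the seeds sort the 9 rows. They are printed 5′ to 3′ as listed in the deposited table, under Xenopus tropicalis names, with the seed in capitals.
miR-1b: tGGAATGTtaagaagtatgta
miR-206: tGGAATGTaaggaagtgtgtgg
miR-221: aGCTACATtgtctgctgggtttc
miR-222: aGCTACATctggctactgggtctc
miR-126: tCGTACCGtgagtaataatgc
miR-155: tTAATGCTaatcgtgatagggg
miR-223: tGTCAGTTtgtcaaatacccc
miR-451: aAACCGTTaccattactgagtt
miR-142-5p: cATAAAGTagaaagcactac
The muscle miRNAs miR-1b and miR-206 share the seed GGAATGT, and miR-221 and miR-222 share GCTACAT. In these pairs the first 8 bases are identical. Compared from the 5′ end without gaps, miR-1b and miR-206 differ at 4 of 21 positions and miR-221 and miR-222 at 12 of 23. miR-222 is the longer of its pair (24 bases against 23), and with a gap allowed this pair differs at fewer positions. The other 5 rows share their seed with no listed row. How many mismatches were allowed when reads were assigned is not given. Reads of miR-1b and miR-206, or of miR-221 and miR-222, might therefore be split between the rows of a pair or counted in both. Outside the 9 rows, miR-29a and miR-29c had the same reads in each library (0 and 0 at stage 11.5, 8 and 11 at stage 26). Some reads may thus stand in the library totals more than once, which was not tested.

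The libraries held 22668 and 30406 miRNA reads (a and b) at stage 11.5, and 46892 and 41878 at stage 26. The early embryonic miRNAs miR-427 and miR-428 took most reads of stage 11.5. Nearly all of these were of miR-427 (19731 and 24832 reads), as miR-428 had 39 and 69. Only 2898 and 5505 reads, or 12.8% and 18.1%, lay outside these rows, against 43105 and 38778 (91.9% and 92.6%) at stage 26. Each level is therefore given in CPM, that is reads scaled to a total of 1000000 listed miRNA reads, and stage differences also after scaling by the trimmed mean of M values (TMM), which moved the stages against each other by 3.95-fold (log2 1.98). Skin miRNAs (miR-203 and miR-205) took 0.701% to 0.904% of reads at stage 11.5 and 6.02% to 6.25% at stage 26. These were miR-203 reads, as miR-205a had a single read, in library b of stage 26. Multiciliated cell miRNAs (miR-449 and miR-34) took 4.02% to 4.87% and 46.0% to 47.0%. Of the markers of the labelled tissue, miR-203, miR-449 and miR-34 were thus present at both stages, and miR-205 was not seen at stage 11.5.

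All 9 rows together were scarce. They took 0.410% and 0.388% of the reads of libraries a and b at stage 11.5, with exact 95% binomial intervals of 0.331% to 0.502% and 0.321% to 0.465%. At stage 26 they took 0.264% and 0.258%, with intervals of 0.220% to 0.315% and 0.212% to 0.311%. The intervals of the stages did not overlap, but with 2 libraries a stage the smallest p of an exact permutation test is 0.33. The means were 0.399% ± 0.0157 and 0.261% ± 0.00463 (SD, n = 2). Outside miR-427 and miR-428 the 9 rows took 2.68% ± 0.753 of reads at stage 11.5 and 0.283% ± 0.00648 at stage 26. Reads carry no molecular identifiers, so these intervals and the limits below cover counting error only. In such bulk samples, fewer cells of a type and less RNA per cell cannot be told apart.

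**Figure D1:**
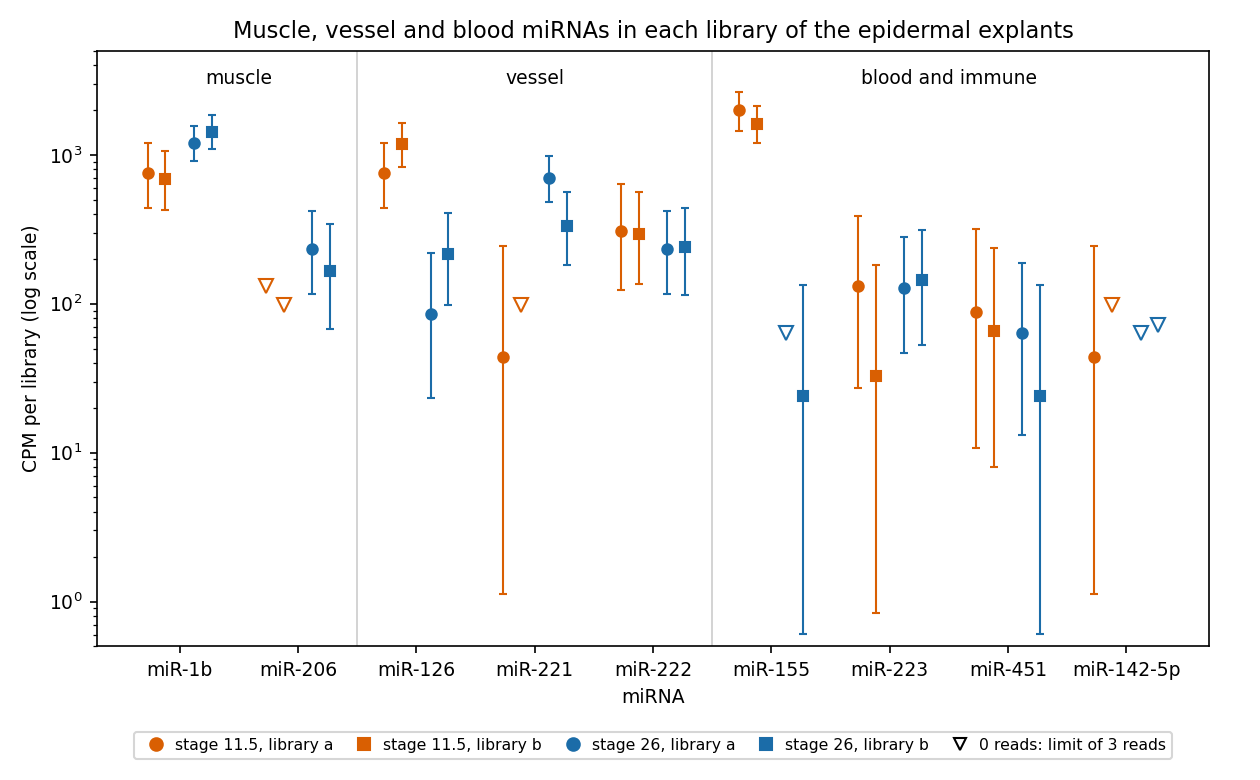
Level of each miRNA in CPM (log axis) in the 4 libraries, with exact 95% binomial intervals; open triangles stand for 0 reads and are drawn at the limit of 3 reads in that library. For miR-155 and miR-126 the stage 26 points and intervals lie below those of stage 11.5, and the stage 26 points of miR-1b, miR-206 and miR-221 lie above those of stage 11.5, with intervals that overlap or reach the limit of 3 reads.

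The CPM of each library come first. In deposited CPM, miR-1b, miR-206 and miR-221 were higher in both stage 26 libraries than in both stage 11.5 libraries, which held for 63.3% of all 98 rows. miR-155, miR-126, miR-222 and miR-451 were lower in both, against 12 of all 98 rows (12.2%). Only rows with reads at stage 11.5 could be lower, which were 59 of the 98 rows and 8 of the 9 members. miR-223 and miR-142-5p overlapped between the stages. Of the 9 rows, 7 had reads at both stages, miR-142-5p was read at stage 11.5 alone and miR-206 at stage 26 alone. Over all 98 rows, 6 were read at stage 11.5 alone and 39 at stage 26 alone.

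In the test across all rows, 5 of the 9 members passed the filter on low values, and 4 of these fell once TMM scaled, at a limma adjusted p under 0.05: miR-155, miR-126, miR-222 and miR-1b. None rose. Of all 52 tested miRNAs, 21.2% fell and 38.5% rose. Of the 5, miR-155, miR-126 and miR-222 passed the filter through stage 11.5 alone and miR-221 through stage 26 alone, the stage where each is higher in CPM, so the count over these 5 is no support for a shared direction. Without library a of stage 26 the scaled log2 values of miR-155, miR-126, miR-222 and miR-1b were -5.59, -3.49, -1.85 and -0.92. Without library b of stage 26 they were -5.85, -4.20, -1.89 and -1.18. In deposited CPM without scaling, 2 members were lower (miR-155 and miR-126) and 2 higher (miR-1b and miR-221), against 11.5% lower and 71.2% higher among all 52. The filter kept out miR-206, miR-223, miR-451 and miR-142-5p, which are described by their reads. With no filter all 9 could be tested, and 1 was higher (miR-206) and 4 lower (miR-155, miR-126, miR-222 and miR-451), against 34.7% higher and 14.3% lower among all 98 rows. The median TMM scaled log2 fold change was then -1.10 over the 9 members, the value of miR-1b, and 0.44 over all 98 rows. In deposited CPM with the filter, the medians were -0.30 over the 5 tested members and 2.27 over all 52 rows. As miR-155, miR-126 and miR-222 passed the filter through stage 11.5 alone, this member median is no support for a shared direction either. The 0 reads of miR-206 at stage 11.5 give no spread there, so its call is no measure of stability. The call of miR-451 rests on 4 reads at each stage, near the limit of 3 reads. Its ratio in share had an interval across 1 (0.111 to 3.21). Divided by the 3.95-fold TMM shift, the interval was 0.0282 to 0.813, which holds no error of the shift. The call used other values, with TMM factors from all rows and 50 CPM added, so this interval is not one of the call.

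The muscle miRNA miR-1b was the most read of the 9 rows, with 154 reads in all. Its level was 750.0 and 691 CPM at stage 11.5 (libraries a and b, 17 and 21 reads) and 1194 and 1433 CPM at stage 26 (56 and 60 reads). Both stage 26 libraries were higher and the libraries of a stage lay close together. The mean went from 720.3 ± 41.9 to 1313 ± 169 CPM (SD, n = 2). In share of reads the ratio of pooled reads of stage 26 to stage 11.5 was 1.83 (exact 95% interval 1.26 to 2.71), and limma also called it higher in CPM (log2 0.82, adjusted p = 0.0404). After TMM scaling the direction turned, to a log2 value of -1.06 (SE 0.289, limma adjusted p = 0.0328). Outside miR-427 and miR-428 the ratio was 0.313 (0.215 to 0.465). Without either stage 26 library the scaled call was lost (limma adjusted p = 0.213 without a and 0.184 without b). The direction of miR-1b thus followed the scale, and its rank among the 98 rows went from 26 to 31.

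miR-206, the other muscle miRNA, was the one member read at stage 26 alone. It had 0 reads in both stage 11.5 libraries, and 235 and 167 CPM (11 and 7 reads) at stage 26. At stage 11.5 a count of 0 allows up to 132 CPM in library a and 98.7 CPM in library b, and up to 56.5 CPM over both. The stage 26 mean was 201 ± 47.7 CPM (SD, n = 2). The 18 pooled reads of stage 26 (202.8 CPM) stood 3.59-fold above that limit in share, and the exact 95% interval of the ratio, which also holds the counting error of stage 26, began at 2.63. After TMM scaling these values were 0.909 and 0.666, so at this depth an appearance beyond the scaling was not detectable. An equal share of reads would have given 10.8 reads at stage 11.5, but an equal share outside miR-427 and miR-428 only 1.85, fewer than the 3 reads that a count of 0 allows. Within the pair that shares the GGAATGT seed, miR-1b gave 38 of 38 reads at stage 11.5 (exact 95% interval from 90.7%) and 116 of 134, or 86.6% (79.6% to 91.8%), at stage 26. This make-up does not depend on the scaling. Its intervals overlapped, which does not show that the make-up was equal, and a difference was not tested.

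The vessel miRNA miR-126 went the other way. It stood at 750.0 and 1184 CPM at stage 11.5 (libraries a and b, 17 and 36 reads) and at 85.3 and 214.9 CPM at stage 26 (4 and 9 reads). The lower stage 11.5 library was still above the higher stage 26 library. Its mean dropped from 967 ± 307 to 150.1 ± 91.6 CPM (SD, n = 2), and its rank from 24 to 66 of 98. The ratio of pooled reads of stage 11.5 to stage 26 was 6.82 in share (3.67 to 13.6). Dropping each library in turn took this ratio to 4.65 (stage 26 a), 5.12 (stage 11.5 b), 8.08 (stage 11.5 a) or 11.7 (stage 26 b). On the scaled values miR-126 fell by 3.99 in log2 (SE 0.374, limma adjusted p = 0.000849), and in CPM it fell by 2.39 (limma adjusted p = 0.00211). Without library a of stage 26 its call was lost (log2 -3.49, limma adjusted p = 0.0629).

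miR-221 and miR-222, sister miRNAs of endothelium and many dividing cells that repress the cell cycle inhibitor p27 in human cells, changed unequally. miR-221 had 44.1 and 0 CPM at stage 11.5 (libraries a and b, 1 and 0 reads) and 704 and 334 CPM at stage 26 (33 and 14 reads). Both stage 26 libraries were higher, and they differed 2.11-fold from each other. As a share of reads, stage 26 stood 28.1-fold above stage 11.5 (4.80 to 1133), and 7.12-fold after scaling (1.22 to 287). Outside miR-427 and miR-428 the ratio was 4.82 with an interval across 1 (0.824 to 195; limma adjusted p = 0.179). Leaving out library b of stage 11.5 took the ratio in share to 12.002, and leaving out library a of stage 26 took it to 17.7. Library a holds the only read of stage 11.5. In CPM miR-221 rose by 2.97 in log2 (limma adjusted p = 0.00123). On the scaled values the difference was 1.82 (SE 0.604) and missed the threshold (limma adjusted p = 0.0552). Without stage 11.5 library a or b the scaled log2 value was 2.88 or 1.09, and without stage 26 library a or b it was 1.24 or 2.07, so its size depends on libraries of both stages.

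miR-222 had 309 and 296 CPM at stage 11.5 (libraries a and b, 7 and 9 reads) and 235 and 239 CPM at stage 26 (11 and 10 reads). The libraries of a stage were almost equal and the stages lay close together. In share the ratio was 0.785 (0.390 to 1.61), and the change in CPM did not pass (log2 -0.30, limma adjusted p = 0.215). On the scaled values it fell by 1.94 in log2 (SE 0.204, limma adjusted p = 0.00127), nearly the 1.98 that the scaling itself moved the stages. Within the GCTACAT pair, miR-221 gave 1 of 17 reads at stage 11.5, or 5.88% (exact 95% interval 0.149% to 28.7%), and 47 of 68 at stage 26, or 69.1% (56.7% to 79.8%). Per library this share was 12.5% and 0% at stage 11.5 and 75.0% and 58.3% at stage 26. The intervals of the stages did not overlap. This share is free of the scaling, and it was not tested over libraries, as 2 against 2 cannot pass.

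**Figure D2:**
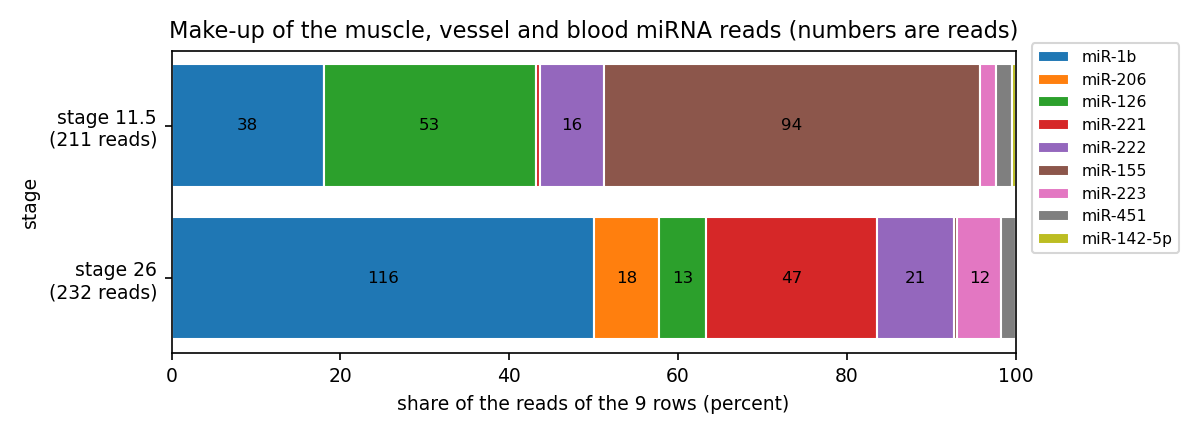
Make-up of the 211 reads of stage 11.5 and the 232 reads of stage 26 that fell on the 9 rows, with both libraries of a stage pooled; bar segments are shares in percent and the numbers in them are reads. miR-155 is the largest segment at stage 11.5 and miR-1b at stage 26.

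Among the blood and immune miRNAs, miR-155 carried nearly all of the change. Its level was 1985 and 1612 CPM at stage 11.5 (libraries a and b, 45 and 49 reads), and 0 and 23.9 CPM at stage 26 (0 and 1 read). Both stage 11.5 libraries were far above both of stage 26. It was the most read of the 9 rows at stage 11.5, at rank 18 of 98, and stood at rank 84 at stage 26. The ratio of pooled reads of stage 11.5 to stage 26 was 157 in share (27.5 to 6275), a wide interval since stage 26 had 1 read. Leaving out library a of stage 26 took it to 74.2, and library b holds the only read of that stage. On the scaled values miR-155 fell by 6.01 in log2 (SE 0.272, limma adjusted p = 0.000156), and in CPM it fell by 4.92 (limma adjusted p = 1.86e-05), and it was called lower in each of 16 alternatives (limma adjusted p at most 0.0341). At its stage 11.5 share 157 reads would have been counted at stage 26, and at its share outside miR-427 and miR-428 it would have been 916.

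miR-155 gave 44.5% of the reads of the 9 rows at stage 11.5 (94 of 211 reads, interval 37.7% to 51.5%) and 0.431% at stage 26 (1 of 232 reads, 0.0109% to 2.38%). miR-1b gave 18.0% (13.1% to 23.9%) and 50.0% (43.4% to 56.6%). For both rows the intervals of the stages did not overlap. The lower summed share of the 9 rows at stage 26 rests on miR-155. With it the ratio of pooled reads of stage 26 to stage 11.5 was 0.657 (0.543 to 0.796), and without it 1.18 (0.941 to 1.49). After scaling the ratio was 0.299 (0.238 to 0.377) without it.

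The white blood cell miRNA miR-223 had 132 and 32.9 CPM at stage 11.5 (libraries a and b, 3 and 1 reads) and 127.95 and 143.3 CPM at stage 26 (6 and 6 reads). The stages overlapped. Its ratio was 1.79 in share (0.544 to 7.63) and 0.454 after scaling (0.138 to 1.93), both with intervals across 1. The red blood cell miRNA miR-451 had 88.2 and 65.8 CPM at stage 11.5 (2 and 2 reads) and 64.0 and 23.9 CPM at stage 26 (3 and 1 reads). Its stages were apart by less than the worth of 1 read, and its ratio in share was 0.598 (0.111 to 3.21). After scaling that ratio was 0.151 (0.0282 to 0.813). miR-142-5p had 1 read, in library a of stage 11.5, and 0 in the other libraries. Its level was at or under the limit at both stages (56.5 CPM at stage 11.5 and 33.8 CPM at stage 26 over both libraries), so no fold is given. A change of these rows in share of reads was not detectable at this depth.

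**Figure D3:**
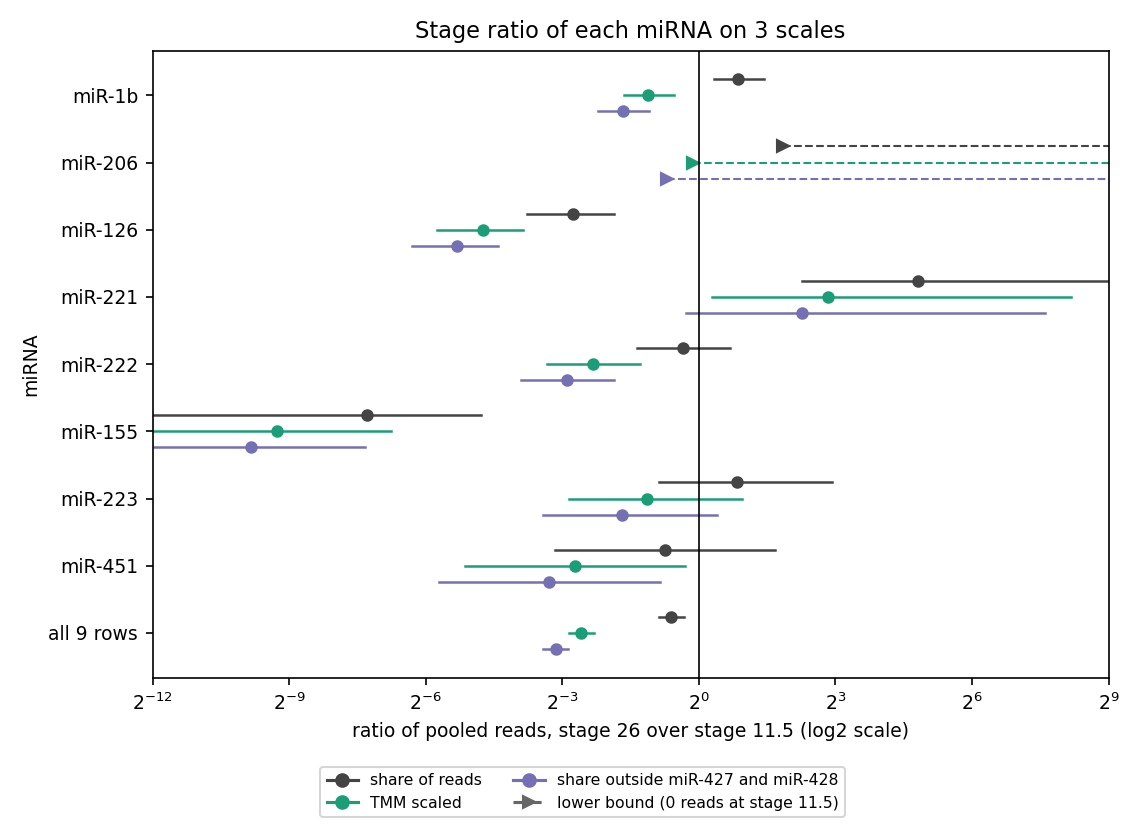
Ratio of pooled reads, stage 26 over stage 11.5 (log2 axis), with exact 95% intervals, as share of all reads, after TMM scaling, and as share outside miR-427 and miR-428; triangles for miR-206 set its stage 26 share against the limit of 3 reads at stage 11.5, and the lines of miR-155 and miR-221 run past the axis. miR-155 and miR-126 lie below 1 on all 3 scales, whereas miR-1b lies above 1 in share and below 1 on the other scales.

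Grouped by the tissue each miRNA is known from, the muscle rows summed to 38 reads at stage 11.5 and 134 at stage 26. The vessel rows summed to 70 and 81, and the blood and immune rows to 103 and 17. Which cells of the explants gave these reads was not tested. In share the ratio of stage 26 to stage 11.5 was 2.11 for muscle (1.46 to 3.11), 0.692 for vessel (0.496 to 0.967) and 0.0987 for blood and immune rows (0.0554 to 0.166). After scaling these ratios were 0.534 (0.370 to 0.787), 0.175 (0.126 to 0.245) and 0.0250 (0.0140 to 0.0420). These sums describe the rows that dominate them. Those were miR-1b, miR-126 with miR-221, and, for the blood and immune rows at stage 11.5, miR-155. At stage 26 miR-223 gave 12 of the 17 blood and immune reads and miR-155 gave 1. Neural and sensory miRNAs, a list of 4 rows, went from 0.0413% ± 0.0165 to 1.28% ± 0.0956 of reads (SD, n = 2). At stage 11.5 the 9 rows thus had more reads than the neural list, and at stage 26 fewer. The order at stage 26 rests on miR-218, which gave most reads of the neural list there. Without miR-218, the rest of that list had fewer reads than the 9 rows in both stage 26 libraries.

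Of 16 exact binomial comparisons of library a with library b (two-sided), 1 had an unadjusted p under 0.05, miR-221 at stage 26 (exact p = 0.0189, 33 and 14 reads), and none after Benjamini-Hochberg adjustment (smallest adjusted p = 0.303). With so few reads, these comparisons would miss all but large differences.

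Other miRNAs known from mesoderm were listed by 13 numbers, which matched 12 rows, 5 of them tested. Of these 5, miR-10c, miR-23a, miR-23b and miR-181b passed the filter through stage 26 alone, where they are high, so the count of 5 called higher after scaling is no evidence about the list. With no filter 2 of the 12 rows were called higher and 0 lower, against 34.7% and 14.3% of all 98 rows. These were miR-10c and miR-146, both with 0 reads at stage 11.5 and hence no spread there. Among the 5 filtered rows the count called higher was 5 in deposited CPM, with a pseudocount of 200 CPM and with no variance trend. It was 4 with voom weights and 3 with the replicate block or a pseudocount of 10 CPM. With TMM factors from all rows it was 2, and with miR-427 and miR-428 out of the totals 1. Over all 52 tested rows, 37 were higher in deposited CPM, 21 with a pseudocount of 200 CPM and 21 with no variance trend. Voom weights gave 20, the replicate block 19 and the pseudocount of 10 CPM 18. TMM factors from all rows gave 16, and miR-427 and miR-428 out of the totals 14 of 50. miR-10c, encoded in a Hox cluster, had 0 reads at stage 11.5 and 874 and 1146 CPM in the stage 26 libraries. miR-146b, of a family that dampens inflammatory signalling in mammals, had 529 and 395 CPM at stage 11.5 and 4180 and 5134 CPM at stage 26 (log2 1.31, SE 0.360, limma adjusted p = 0.0328). miR-23a and miR-23b, near-identical miRNAs of endothelium and many other cells, had 1 read each at stage 11.5 and 52 and 48 at stage 26. Their scaled log2 fold changes were 2.03 and 1.92 (limma adjusted p = 0.0300 and 0.0341). In libraries a and b of stage 26, miR-23a had 28 and 24 reads and miR-23b 28 and 20. Rows this alike may count the same reads, which was not tested, so the calls of miR-23a and miR-23b are not separate evidence. No row of this list was called lower in the 15 alternatives run on it. This is no evidence about the list either, as 4 of its 5 filtered rows passed through stage 26 alone. The difference between this list and the members was not tested.

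The rows nearest in pattern to miR-1b, by distance between their log2(CPM + 50) values in the 4 libraries after removal of each row's mean, were miR-428, miR-193 and miR-130a among 63 rows with at least 15 reads. Their distances were 0.639, 0.793 and 0.841. miR-193 had 706 and 460.4 CPM at stage 11.5 and 746 and 597 CPM at stage 26. miR-428 had 1720 and 2269 CPM at stage 11.5 and 5097 and 4489 CPM at stage 26. For miR-130a the values were 750.0 and 592 CPM, and 2197 and 2101 CPM. With 4 libraries of 2 stages, this likeness describes little more than a higher mean CPM at stage 26, by amounts that differed between these rows. For miR-193 the stages overlapped.

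**Figure D4:**
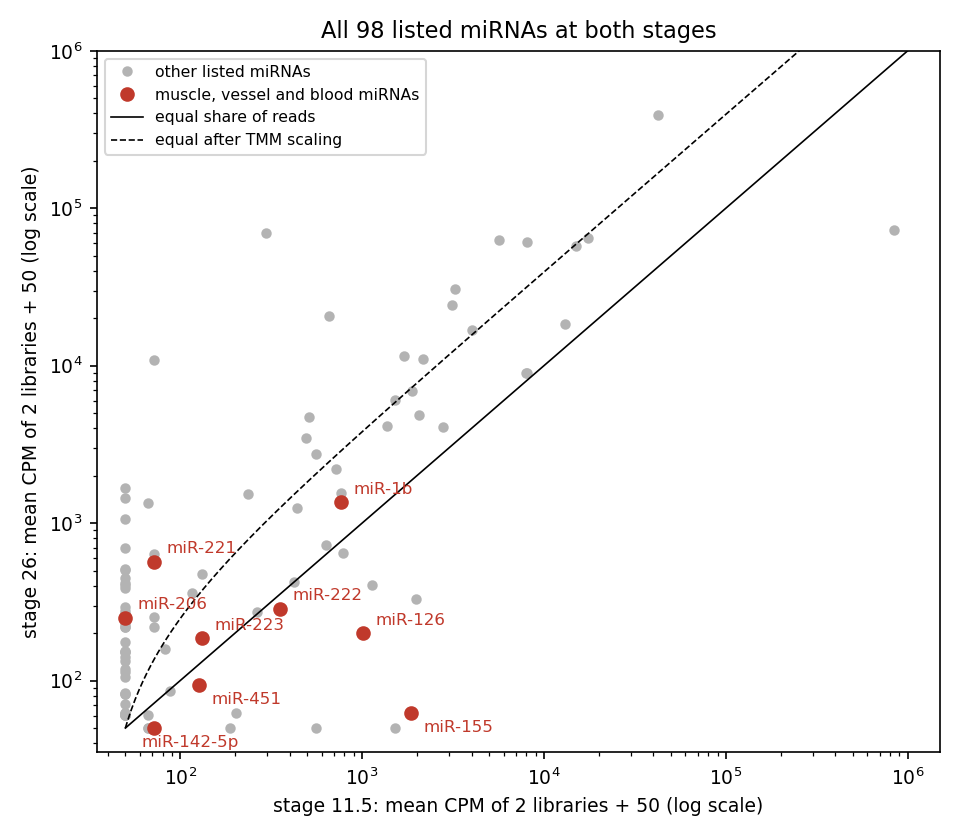
Mean CPM plus 50 of all 98 rows at stage 11.5 and stage 26 (log axes), with the 9 rows named; the solid line is an equal share of reads and the dashed line equality after TMM scaling. miR-155 and miR-126 lie far below both lines, and miR-221 lies above both; miR-206 has 0 reads at stage 11.5 and is drawn there at the added 50 CPM, which sets its place against the dashed line.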

How the data were processed

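The authors deposited 1 table of 98 miRNAs with mature sequences and 1 column per library, in CPM over the listed miRNAs (each column sums to 1000000). Per the labels' protocols, Ambion's SREK kit was used to make the libraries. Sequencer, aligner, allowed mismatches and miRNA database were not given in the sources used here. Each value was a whole multiple of its column's smallest nonzero value (tolerance 1e-06, 100% of values), so that value was taken as 1 read. Reads, limits and intervals rest on this. The count-based tests planned (edgeR) were not run, as the deposited unit is CPM and the reads are inferred from it. limma with voom weights on the inferred reads was tried as an alternative.

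Tests used limma 3.58.1 (R 4.3.3), a variance trend, and log2(CPM over the TMM factor, plus 50 CPM), Benjamini-Hochberg adjusted over all tested rows at 0.05. The added 50 CPM shrinks fold changes of low rows. TMM (trimming 30% of M and 5% of A values per end) used the tested rows, those with 15 reads in all and, in 2 or more libraries, 10 reads at median depth (276.7 CPM). The fit was checked on simulated data in which miR-427 did not fall between the stages, so this check does not cover the TMM shift of these data. Ratios of pooled reads have exact conditional binomial intervals (95%), scaled ratios are these over 3.95, and limits for 0 reads are 3 reads. Every member was named. The members, lists and tests were chosen with earlier results of these data known.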

Additional observations from a re-analysis of the deposited data

How the results depend on the processing

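Over 16 alternatives, the fitted values of miR-155, miR-126 and miR-222 were lower in all 16, that of miR-221 was higher in all 16, and that of miR-1b lower in 15. The call held in 16 for miR-155 and in 15 for miR-126 (not without library a of stage 26) and miR-222 (not in CPM). In deposited CPM 37 rows were higher and 6 lower, against 20 and 11 after scaling, with 2 members higher and 2 lower. miR-1b reversed there (log2 0.82), and its pooled ratio of 1.83 in share became 0.462 after the TMM shift and 0.313 with miR-427 and miR-428 out of the totals. With these out of the totals, the members' share was 2.68% at stage 11.5 and 0.283% at stage 26 and their ratio 0.113, and after the TMM shift that ratio was 0.167. The cause was not tested.

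With no filter, 34 rows were higher (34.7%) and 14 lower (14.3%), with 1 member higher, miR-206 (limma adjusted p = 0.00714, range 0.00512 to 0.00714). Its 0 reads in both stage 11.5 libraries give no spread there, so this p is no measure of stability. A filter at 100 CPM also called it, and gave 1 of 7 tested members higher and 4 lower, against 30 and 13 of 66 rows. Of all 52 tested rows, 21 were higher with a pseudocount of 200 CPM, 19 with the replicate block and 20 with voom weights. One member, miR-221, was higher with a pseudocount of 200 CPM (1), with the replicate block (1, limma adjusted p = 0.000934, range 0.000934 to 0.405) and with voom weights (1), the last chosen after seeing the data, as was TMM from all rows. Leaving out 1 library gave 8 to 24 rows higher and 5 to 12 lower, 8 in both cases without a stage 26 library. Members lower ranged from 2 (without stage 26 a, miR-155 and miR-222) to 4, and members higher stayed at 0.

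miR-1b lost its call with no filter (limma adjusted p = 0.0580), without either stage 26 library (0.213 and 0.184) and with the replicate block (0.116). No label pairs libraries by letter, and same-letter deviations correlated at -0.26 over tested rows. The replicate block changed no other member's call than those of miR-1b and miR-221, and gave 19 rows higher and 10 lower. The edgeR alternative was not run. Depth outside miR-427 at stage 11.5 limits what can be said of rows at 0 there.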
